A study of Homo sapiens with 9 samples.

Results

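Matrix metalloproteases are zinc enzymes that cut collagens, laminins, other matrix proteins and many cell-surface proteins, and most are made as inactive precursors. Tissue inhibitors of metalloproteases, the TIMPs, bind the active site of these enzymes and block it. MMP14, a protease anchored in the membrane, activates the precursor of MMP2 in a complex in which TIMP2 serves as the bridge, so the balance of these 3 transcripts is often followed in invasive tumours. The genes described here are 10 named members of these families: the collagenases MMP1 and MMP13, the gelatinase MMP2, the matrilysin MMP7, the stromelysin MMP10, the membrane-type proteases MMP14 and MMP15, and the inhibitors TIMP1, TIMP2 and TIMP3. They were found by symbol, and all 10 are among the 52165 gene identifiers listed in both count tables, of 57820 listed for Kyse150 and 60683 for TE11.

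Polyadenylated RNA was sequenced from Kyse150 and TE11, established human lines of esophageal squamous cell carcinoma grown in medium with serum. A lentivirus carried either a non-targeting shRNA or one directed at KDM2A, a histone demethylase. The groups are 2 Kyse150 controls, 2 Kyse150 KDM2A knockdowns, 3 TE11 controls and 2 TE11 libraries labelled KDM2A knockdown. No other treatment is named in the labels, and the sources used here do not say whether cells were pooled or clonal. The labels call replicates independent without saying what was repeated, so p-values measure only library-to-library spread, some of which may be technical. The comparison in each line asks which transcripts differ with the knockdown label, and the labels name a single shRNA target, so loss of KDM2A and any further action of that shRNA cannot be told apart.

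Library depth was 6052883 to 7167055 gene counts for Kyse150 and 8457767 to 12073098 for TE11. KDM2A stood at 169 and 171 CPM ((counts scaled to library size over the genes of both tables)) in the Kyse150 controls, against 104 and 102 in the knockdowns. In TE11 it stood at 121 to 124 CPM in the controls and at 132 and 146 in the libraries labelled knockdown, so the target gene goes against the label there. Against the Kyse150 controls those 2 libraries gave correlations of 0.922 to 0.928, and against the TE11 controls 0.781 to 0.783 (Pearson r over 12085 coding genes, which are not independent replicates). All 14 squamous epithelium markers were detected in every group, and their sum moved with the labels: 3330 to 3410 CPM in the Kyse150 controls, 4740 to 4930 in the knockdowns, 6520 to 6990 in the TE11 controls and 3240 to 3300 in the labelled knockdowns. In TE11, 11 of the 14 were called lower and 3 higher, where 42.2% of all genes tested were called lower and 35.9% higher. In Kyse150, 7 of 13 tested markers were called higher and 3 lower, where 24.8% and 23.3% of all genes were. Sums of 8 endothelial markers, mostly EGFL7, were 16 to 20.6, 38.9 to 39.3, 70.6 to 79 and 13.2 to 13.5 CPM in the same order, with 3, 4, 1 and 1 genes at 0. Sums of 12 leukocyte markers were 3 to 3.05, 5.04 to 5.08, 3.8 to 4.58 and 2.08 to 3.49 CPM, with 6, 6, 3 and 7 genes at 0, PTPRC among them in every group. Of these, CSF1R rose 2.77-fold in Kyse150 (edgeR adjusted p = 0.00508), a call lost with DESeq2 (adjusted p = 0.0942) and without knockdown replicate 1 (0.0814). ITGAM fell in TE11, from 46 counts to 2, and passed the filter only through the controls. Fibroblast markers summed to 29.5 to 31.8 CPM in the TE11 controls, with 2 of 12 genes at 0, and to 4.15 to 4.88 in the libraries labelled TE11 knockdown. The sums were 7.08 to 9 CPM in the Kyse150 controls and 13.1 to 14.7 in the knockdowns, and the fibroblast gene DCN was at 0 in all groups but the TE11 controls, where it held 7 counts. In TE11, 4 of the 12 were tested and 4 were called lower, where 42.2% of all genes were called lower. FAP went from 307 counts to 0, COL3A1 from 78 to 0 and PDGFRB from 45 to 2, and COL1A1 was at 0.185 of control. The first 3 passed the filter only through the controls. The part of all those markers in the results was not tested. In bulk RNA, fewer cells that express a gene and less RNA per cell cannot be told apart.

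The promoters of 3 members are shown because their genes differed most between the TE11 groups. RefSeq promoter windows, from 250 bases before the transcript start to 50 after it in GRCh38.p14, were held for 6 of the 10 members: MMP7, MMP10, MMP14, MMP15, TIMP1 and TIMP3. Both strands were searched for the AP-1 site, spelled TGAGTCA. They were searched in the same way for the TATA box with the letters TATAAA. The letters used for the GC box were GGGCGG, and every match is in capitals. Each stretch runs 5′ to 3′ on the gene's strand and stops before the first annotated exon base of the gene.
MMP7: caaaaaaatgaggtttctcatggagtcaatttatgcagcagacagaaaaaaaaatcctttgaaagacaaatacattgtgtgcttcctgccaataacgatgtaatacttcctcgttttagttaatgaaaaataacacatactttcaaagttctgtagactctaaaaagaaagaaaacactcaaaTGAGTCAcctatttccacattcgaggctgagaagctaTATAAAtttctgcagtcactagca
MMP14: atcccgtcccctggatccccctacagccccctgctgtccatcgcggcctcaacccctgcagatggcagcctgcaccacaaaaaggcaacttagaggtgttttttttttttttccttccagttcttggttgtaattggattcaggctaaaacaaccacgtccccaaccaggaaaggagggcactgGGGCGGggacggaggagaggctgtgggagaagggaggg
TIMP3: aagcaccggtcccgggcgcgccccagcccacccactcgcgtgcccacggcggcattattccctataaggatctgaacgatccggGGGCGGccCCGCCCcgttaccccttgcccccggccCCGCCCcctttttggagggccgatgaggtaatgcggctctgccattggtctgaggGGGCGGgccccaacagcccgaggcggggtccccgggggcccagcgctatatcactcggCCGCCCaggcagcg
These stretches lie at chr11:102530754-102530997 on the reverse strand, chr14:22836335-22836556 on the forward strand and chr22:32801455-32801700 on the forward strand.

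In the MMP7 window the AP-1 letters began at -67 and the TATA letters at -30, counted from the transcript start. AP-1 letters occurred in 4.95% of 35116 promoters of the same length and TATA letters in 11.5%. MMP10 held TATA letters at -31 and no match to the AP-1 letters. MMP14 held a GC box at -66 and neither other motif, whereas MMP15 and TIMP3 held 5 GC boxes each and TIMP1 held 2. GC box letters occurred in 45% of promoters, and no match in any of the 6 windows overlapped a match to another motif. The observed number of CpG dinucleotides over that expected from base content was 0.206 for MMP10, 0.424 for MMP7, 0.442 for MMP14, 0.518 for TIMP1, 0.788 for TIMP3 and 0.922 for MMP15, against a median of 0.579 over all promoters. A match is a description of letters and does not show binding. Windows for 6 members are too few to compare kinds of promoter.

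**Figure D1:**
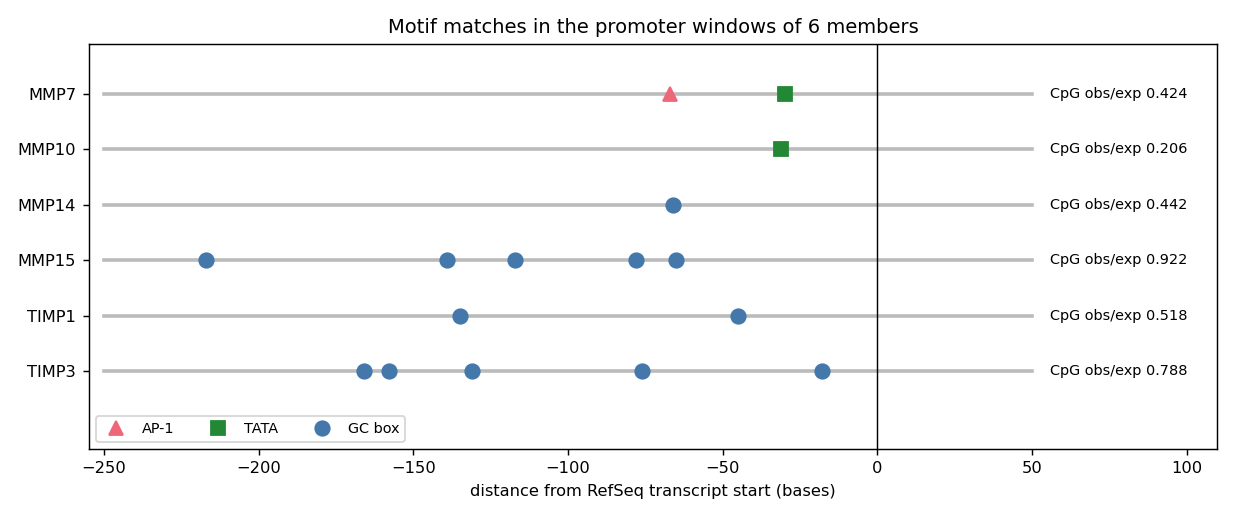
Matches to 3 motifs along the promoter windows of 6 members, by distance in bases from the RefSeq transcript start; symbols mark the first base of each match, grey lines the window, and the text gives the CpG observed over expected ratio. MMP7 holds an AP-1 and a TATA match close to the start, while MMP15 and TIMP3 hold 5 GC boxes each.

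In Kyse150, every member abundant enough to test was higher in the KDM2A knockdowns, inhibitors as well as proteases. The membrane-type protease MMP15 rose 2.72-fold, the gelatinase MMP2 2.09-fold and TIMP2 1.77-fold, and MMP14 and TIMP1 rose 1.31-fold and 1.3-fold. TIMP3 rose 4.34-fold from a low level. The collagenases, MMP7 and MMP10 held too few fragments to test. Of 10 members 6 were tested and 6 were called higher (edgeR quasi-likelihood, Benjamini-Hochberg adjusted p under 0.05), where 48.2% of 14060 genes tested were called and 24.8% were called higher. The median log2 fold change over all genes tested was 0.00. A member passed the filter only where counts were high enough in a group, so the 6 are not a sample of the 10. TIMP3 passed it only through the knockdowns, so its direction followed from the filter. MMP1, MMP10 and MMP13, left untested, held fewer counts in the knockdowns than in the controls, none of them a called difference.

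MMP14, on chromosome 14 from 22836557 to 22849027 (GRCh38, GENCODE release 29), was the most abundant of the 7 proteases per length in every group but the TE11 controls. Its levels were 265 and 297 CPM in the Kyse150 controls against 368 and 365 CPM in the knockdowns. Both knockdowns stood above both controls (log2 fold change 0.39, SE 0.06, edgeR adjusted p = 5.71e-06). MMP15, a close relative of MMP14 on chromosome 16 from 58025566 to 58046901, rose more steeply. It stood at 25.7 and 27.9 CPM in the controls and at 74.1 and 70.8 CPM in the knockdowns, without overlap (log2 fold change 1.44, SE 0.11, edgeR adjusted p = 9.41e-12). With so few libraries, a lack of overlap says little alone, here and below, and its share over all genes was not counted.

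MMP2 (chromosome 16, from 55389700 to 55506691) degrades denatured collagen and basement membrane collagen. It stood at 20.5 and 22 CPM in the controls and at 48.5 and 39.7 CPM in the knockdowns, again without overlap (log2 fold change 1.06, SE 0.13, edgeR adjusted p = 1.54e-07). Fibroblasts are a common source of MMP2 in tumours. Of 12 fibroblast markers 2 were tested in Kyse150: COL1A1, a chain of type I collagen, rose 1.72-fold and CFD was 1.59-fold higher without passing the test (edgeR adjusted p = 0.233). DESeq2 did not call COL1A1 (adjusted p = 0.0764). The markers COL1A2, DCN, PDGFRA and FAP were at 0 in all 4 Kyse150 libraries, whereas COL3A1, COL6A3, POSTN and THY1 were at 0 in both controls and detected among the knockdowns, and LUM the reverse. The part of these markers in the MMP2 result was not tested.

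TIMP1 inhibits many secreted proteases but is a poor inhibitor of the membrane-type ones. Its levels were 74.9 and 73.3 CPM in the controls and 94.4 and 97.6 CPM in the knockdowns (log2 fold change 0.38, SE 0.08, edgeR adjusted p = 0.000347). TIMP2 stood at 74.9 and 65.6 CPM and at 120 and 128 CPM in the same order (log2 fold change 0.82, SE 0.08, edgeR adjusted p = 5.07e-09). For each of these inhibitors the groups did not overlap. TIMP3, which binds to the matrix and also inhibits some ADAM proteases, rested on 6 and 4 counts in the controls against 24 and 17 in the knockdowns. That is 0.833 and 0.571 CPM against 3.49 and 2.68 CPM (log2 fold change 2.12, SE 0.48, edgeR adjusted p = 0.000679), and the ratio of counts had an exact 95% interval of 2.17 to 9.86, for counting error only.

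TIMP1 (chromosome X, from 47582313 to 47586789) lies inside SYN1 and TIMP3 (chromosome 22, from 32801701 to 32863043) inside SYN3, each on the strand opposite to its host and sharing no exon bases with it. TIMP2 (chromosome 17, from 78852977 to 78925387) shares exon bases with CEP295NL and with a gene on the opposite strand, and MMP2 shares some with a clone-named gene on its own strand. The strand setting of the counting was not stated, so fragments in those stretches are uncertain.

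The secreted proteases of the cluster on chromosome 11 were near the detection limit in Kyse150. MMP1, which cuts fibrillar collagen, held 11 and 9 counts in the controls against 6 and 4 in the knockdowns, a ratio of 0.537 with an exact 95% interval of 0.224 to 1.2. Without a filter on low counts its log2 difference was -0.89 (edgeR adjusted p = 0.375). MMP10, an activator of other MMP precursors, held 5 and 1 counts in the controls and 0 in both knockdowns. That is 1.86-fold lower against a floor of 3 counts over the group, which takes the control counts as exact and so is no bound. MMP13 held 3 and 1 counts and then 0 and 0, 1.24-fold lower on the same floor and with the same limit. Neither difference passed the test without a filter (edgeR adjusted p = 0.137 for MMP10 and 0.297 for MMP13). MMP7 held 0 counts in all 4 libraries, which allows a level of up to 0.416 to 0.473 CPM per library. None of these 4 can be called changed at this depth.

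**Figure D2:**
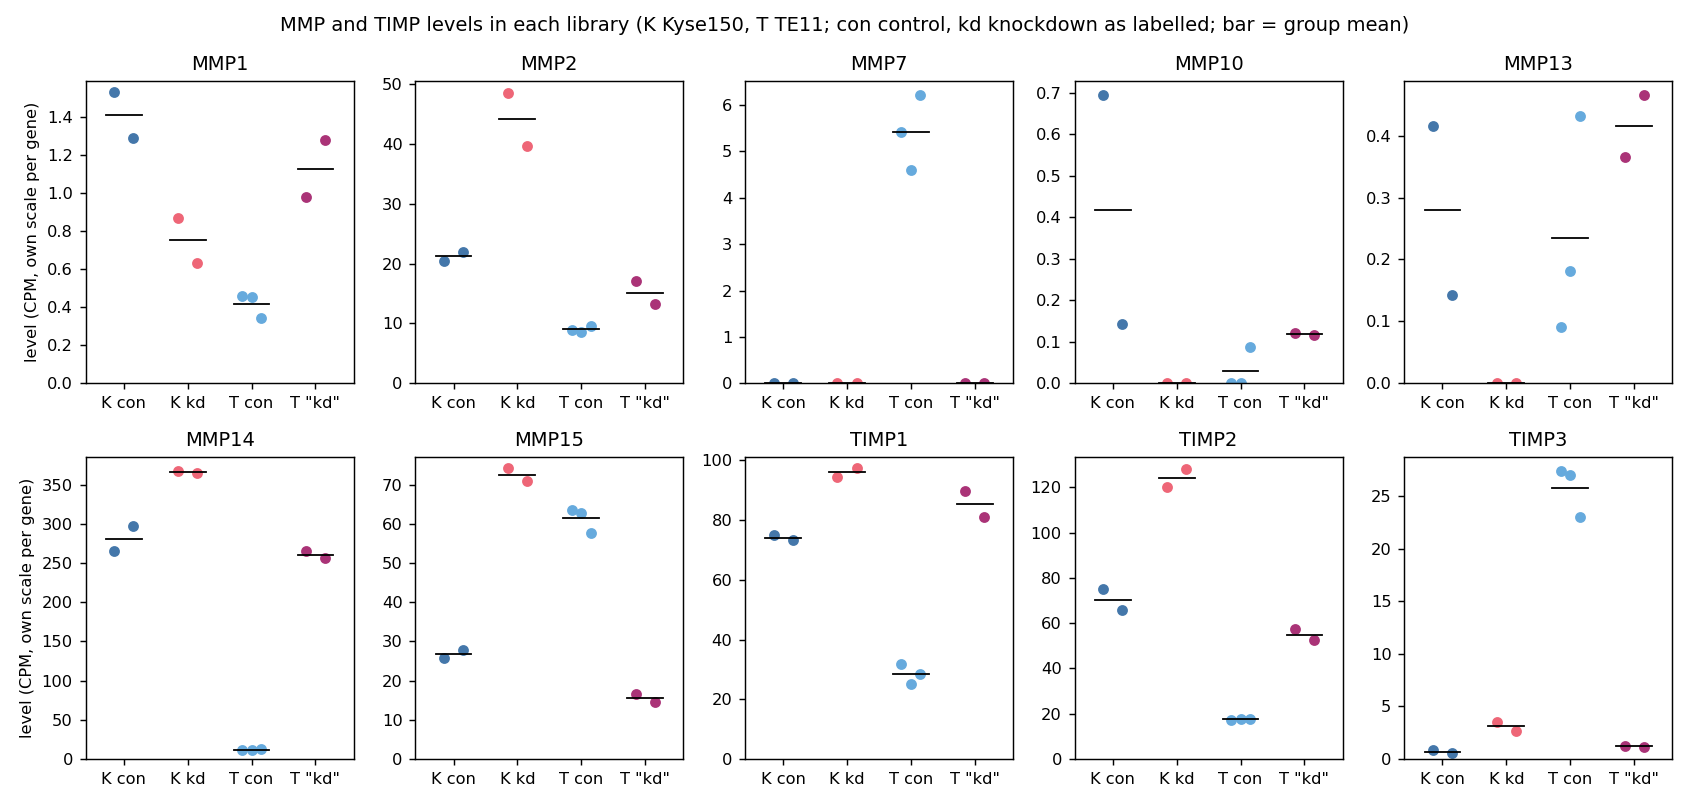
Level of each member in each of the 9 libraries, in CPM on a linear axis that starts at 0 and has its own range per gene; points are libraries and black bars group means. MMP7 is above 0 in the TE11 controls alone, MMP14 is at 11.2 to 12.2 CPM there and above 250 CPM in every other library, and TIMP3 is at 23 to 27.4 CPM there and below 3.5 CPM elsewhere.

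In TE11 every tested member was called different between the libraries labelled knockdown and the controls, although the MMP1 call was lost under 5 of 8 alternatives. MMP14 was 22.2-fold higher in the labelled knockdowns, TIMP2 3.07-fold, TIMP1 2.96-fold and MMP2 1.66-fold. The other direction held for MMP15, at 0.249 of control, for TIMP3, at 0.0461, and for MMP7, which had no counts in the labelled knockdowns. Of 8 members tested 5 were called higher and 3 lower, where 78.1% of 16453 genes tested were called, 35.9% higher and 42.2% lower. MMP1 passed the filter only through the labelled knockdowns and MMP7 only through the controls, so the direction of each followed from the filter. With so many genes called, a call by itself says little about these members, and every direction is between labels that KDM2A itself did not follow. The median log2 fold change over all genes tested was -0.09.

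MMP14 stood at 11.4, 11.2 and 12.2 CPM in the TE11 controls and at 266 and 256 CPM in the labelled knockdowns. The groups were far apart and each was tight (log2 fold change 4.47, SE 0.08, edgeR adjusted p = 6.51e-39). MMP15 stood at 63.6, 62.8 and 57.6 CPM in the controls and at 16.5 and 14.4 CPM in the labelled knockdowns (log2 fold change -2.01, SE 0.11, edgeR adjusted p = 3.51e-21). The membrane-type proteases thus traded places between the TE11 groups. MMP2 was at 8.89, 8.5 and 9.57 CPM in the controls and at 17 and 13.2 CPM in the labelled knockdowns (log2 fold change 0.73, SE 0.16, edgeR adjusted p = 6.00e-05).

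Among the inhibitors, TIMP1 stood at 31.8, 25.1 and 28.5 CPM in the TE11 controls and at 89.7 and 80.9 CPM in the labelled knockdowns (log2 fold change 1.57, SE 0.09, edgeR adjusted p = 5.12e-20). TIMP2 stood at 17.3, 17.8 and 17.8 CPM and then at 57.4 and 52.4 CPM (log2 fold change 1.62, SE 0.10, edgeR adjusted p = 1.36e-18). TIMP3 went the other way, from 27.4, 27 and 23 CPM in the controls to 1.22 and 1.16 CPM (log2 fold change -4.44, SE 0.22, edgeR adjusted p = 2.36e-22). No group overlapped with the other for any of the 3, and the share of all genes without overlap was not counted. TIMP3 in the labelled knockdowns rested on 10 counts in each library.

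MMP7, a small protease lacking the hemopexin domain and typical of epithelial cells, held 59, 51 and 72 counts in the TE11 controls and 0 in both labelled knockdowns. It was 30.4-fold lower (edgeR adjusted p = 6.75e-13), with 3 counts as the floor of the labelled knockdowns together and the control counts taken as exact. MMP1 held 5, 5 and 4 counts in the controls against 8 and 11 in the labelled knockdowns. It was 2.63-fold higher (log2 fold change 1.39, SE 0.59, edgeR adjusted p = 0.03), a call lost with DESeq2 (adjusted p = 0.112), without a filter, with the replicate number as a block (edgeR adjusted p = 0.132) and without either labelled knockdown library (0.0243 to 0.233 over the 8 alternatives that tested it). Without any single TE11 control it fell under the filter and was not tested. MMP1 also shares exon bases with WTAPP1 on the opposite strand. MMP10 held 0, 0 and 1 counts in the controls against 1 and 1 in the labelled knockdowns, under the floor in both groups. MMP13 held 1, 2 and 5 counts and then 3 and 4, a ratio of 1.75 with an exact 95% interval of 0.54 to 5.52.

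**Figure D3:**
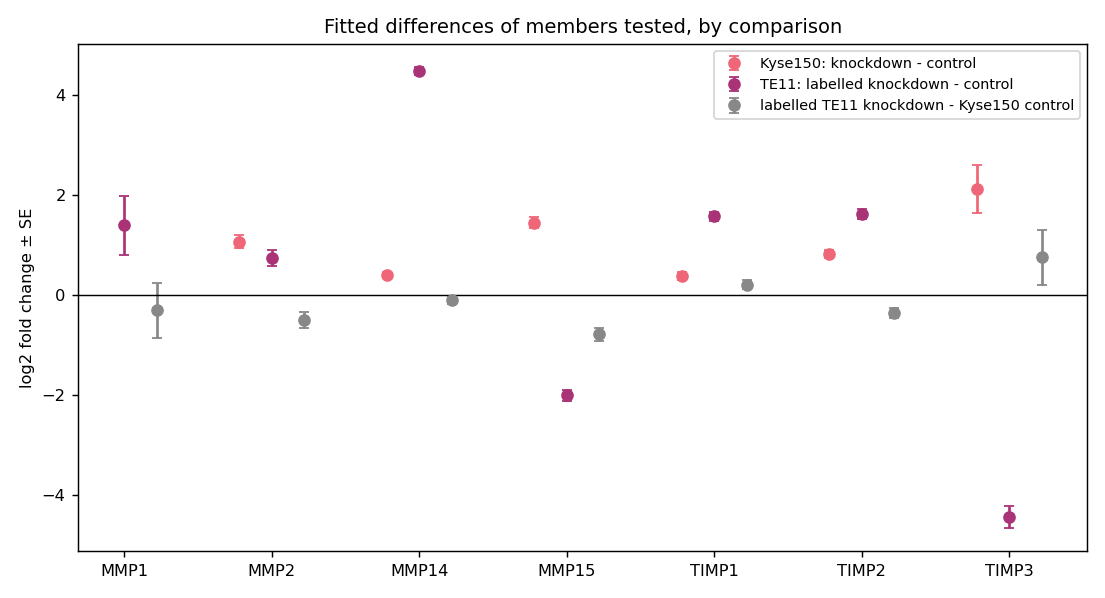
Fitted log2 fold changes with their standard errors (bars) for 7 members, in 3 comparisons; MMP7, MMP10 and MMP13 are left out because their groups hold 0 or few counts. In Kyse150 the 6 points shown lie above 0, in TE11 MMP14 reaches 4.47 and TIMP3 -4.44, and the grey points, for labelled TE11 knockdowns against Kyse150 controls, lie between -0.79 and 0.75.

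The differences between labels in the 2 lines were compared directly by fitting the 9 libraries together over shared genes. Of 15895 genes tested 66.9% differed, 33.8% with the higher value in TE11. KDM2A itself differed by 0.90 (SE 0.10, edgeR adjusted p = 1.06e-11), being lower in the Kyse150 knockdowns but not in the labelled TE11 knockdowns. The values below therefore compare labels. MMP2 was the tested member whose fold change could not be told apart between the lines: the difference, TE11 minus Kyse150, was -0.31 (SE 0.21, edgeR adjusted p = 0.185). The difference was 4.11 for MMP14 (SE 0.11, edgeR adjusted p = 7.76e-41), 1.21 for TIMP1 (SE 0.13, 1.44e-12) and 0.82 for TIMP2 (SE 0.13, 2.27e-07), in each case with a rise in both lines. MMP15 rose in Kyse150 and fell in TE11, a difference of -3.43 (SE 0.15, edgeR adjusted p = 1.79e-28). TIMP3 likewise rose in Kyse150 and fell in TE11, a difference of -6.54 (SE 0.53, edgeR adjusted p = 5.33e-17). Its direction in Kyse150 followed from the filter. For MMP1 the difference was 2.29 (SE 0.85, edgeR adjusted p = 0.0152), and it was lost under 5 alternatives. MMP7, at 0 in both Kyse150 groups, gives no usable difference. The tables of the lines were made separately with different annotations, which this fit cannot separate from the line.

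Across the 4 groups, the TE11 controls stood apart. Compared with the Kyse150 controls they held less MMP14 (0.0413 of the Kyse150 level), TIMP2 (0.251), TIMP1 (0.384), MMP2 (0.424) and MMP1 (0.304). They held more MMP15 (2.29-fold), TIMP3 (36-fold) and MMP7 (25.7-fold on a floor of 3 counts, with the TE11 counts taken as exact). All 8 tested members were called, 3 higher and 5 lower, where 79.7% of genes were called, 43.7% higher and 36.0% lower, and the MMP1 call was lost without Kyse150 control replicate 1 (edgeR adjusted p = 0.0661, with 0.00466 to 0.0661 over the alternatives). Of these members, MMP7 passed the filter only through the TE11 controls and MMP1 only outside them. The labelled TE11 knockdowns were much closer to the Kyse150 controls: 3 of 8 tested members were called, all lower, where 53.6% of genes were called and 24.5% were called lower. Those were MMP15 (0.577 of the Kyse150 control level, edgeR adjusted p = 8.03e-07), MMP2 (0.709, 0.00595) and TIMP2 (0.78, 0.00115). MMP14 was at 0.927 (SE 0.07 on the log2 scale, edgeR adjusted p = 0.168) and was called lower with RLE scaling (adjusted p = 0.0225), upper quartile scaling (0.00452), DESeq2 (0.0436) and without TE11 control replicate 1 (0.0309). These comparisons share the Kyse150 controls, and the TE11 controls and the Kyse150 controls also enter the comparisons within each line.

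The order of the groups differed by member. MMP2 and TIMP2 were highest in the Kyse150 knockdowns, followed by the Kyse150 controls, the labelled TE11 knockdowns and the TE11 controls, with no overlap between neighbours. MMP14 had that order too, but its Kyse150 controls and labelled TE11 knockdowns overlapped. TIMP1 differed from it in that the labelled TE11 knockdowns ranked above the Kyse150 controls, by 1.15-fold, which did not pass the test (edgeR adjusted p = 0.0604). MMP15 ran from the Kyse150 knockdowns through the TE11 controls and the Kyse150 controls to the labelled TE11 knockdowns. TIMP3 was highest in the TE11 controls, then the Kyse150 knockdowns, and its lowest neighbours, the labelled TE11 knockdowns and the Kyse150 controls, did not pass the test (edgeR adjusted p = 0.257).

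Levels of different members were compared per kilobase of exon. MMP14 was at 63 ± 5.1 CPM per kb in the Kyse150 controls (SD, n = 2), 82 ± 0.465 in the knockdowns (SD, n = 2), 2.59 ± 0.114 in the TE11 controls (SD, n = 3) and 58.4 ± 1.58 in the labelled knockdowns (SD, n = 2). MMP15 was at 6.06 ± 0.349, 16.4 ± 0.525, 13.9 ± 0.735 and 3.49 ± 0.331 CPM per kb in the same order. MMP14 made up 84% and 85.2% of the summed level of the 7 proteases in the Kyse150 controls, 75.3% and 77% in the knockdowns, 11.9% to 13.1% in the TE11 controls and 88.3% and 89.4% in the labelled knockdowns. In the TE11 controls MMP15 held 62.8% to 68.6% of that sum.

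The ratio of MMP14 to MMP15 within a library, which no scaling between libraries affects, was 10.2 and 10.6 in the Kyse150 controls, compared with 4.91 and 5.1 in the knockdowns. It was 0.177 to 0.209 in the TE11 controls and 16 and 17.6 in the labelled knockdowns. MMP14 was thus the lesser of the pair in the TE11 controls and the greater in all other libraries. The ratio of MMP14 to TIMP2, partners in the activation of MMP2, was 4.46 and 5.72 in the Kyse150 controls, 3.88 and 3.6 in the knockdowns, 0.794 to 0.864 in the TE11 controls and 5.84 and 6.16 in the labelled knockdowns.

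Among the inhibitors TIMP1 was the most abundant per kilobase in every library, with 64.3% to 84.8% of their summed level. TIMP3 held 18.8% to 23.2% of it in the TE11 controls and 0.209% to 0.909% in the other 6 libraries. TIMP2 held 19.6% to 21.4% in the Kyse150 controls against 25.5% to 26.2% in the knockdowns. The sum of the 7 proteases over that of the 3 inhibitors was 1.14 and 1.32 in the Kyse150 controls against 1.31 and 1.23 in the knockdowns, groups that overlap although both sums were larger in the knockdowns. That ratio was 0.719 to 0.819 in the TE11 controls and 0.981 and 1.03 in the labelled knockdowns. It counts transcripts and says nothing of active enzyme.

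**Figure D4:**
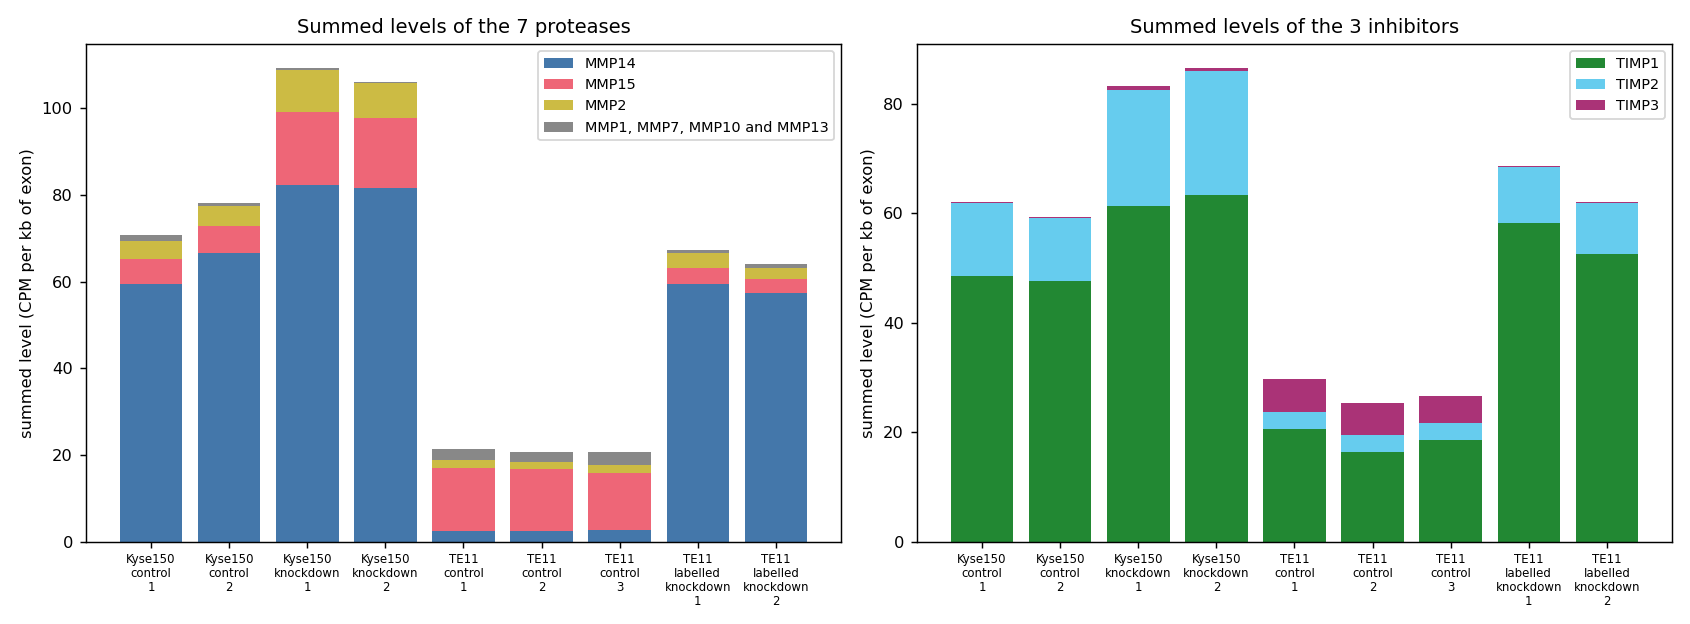
Summed levels of the 7 proteases (left) and the 3 inhibitors (right) in each library, in CPM per kb of exon, stacked by gene. MMP14 fills 75.3% to 89.4% of the protease bars except in the TE11 controls, where MMP15 fills 62.8% to 68.6%, and TIMP3 is visible as a large part only in the TE11 controls.

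The other members of the families were mostly at low counts. In Kyse150, where 24.8% of all genes were called higher, 5 of 17 were tested and 2 rose: MMP17, a protease anchored by a lipid, 3-fold (log2 SE 0.20) and MMP11, a stromelysin activated inside the cell, 8.84-fold (log2 SE 0.51) on 6 control counts. MMP11 passed the filter only through the knockdowns, so its direction followed from the filter. MMP19 and MMP25 were 1.38-fold and 1.55-fold higher and MMP24 was at 0.805 of control, and none of these passed (edgeR adjusted p = 0.171, 0.18 and 0.253). MMP25 was called higher without control replicate 1 (edgeR adjusted p = 0.0444) or knockdown replicate 2 (0.0201). In TE11, 8 of 17 were tested, with 2 higher and 4 lower in the labelled knockdowns, where 78.1% of all genes were called. The higher ones were MMP24, a membrane-type protease, 5.58-fold (log2 SE 0.28), and MMP17, 2.22-fold (log2 SE 0.31). MMP28 was at 0.231 of control (log2 SE 0.43) and MMP25 at 0.548 (log2 SE 0.38). MMP28 passed the filter only through the controls, so its direction followed from the filter. The MMP25 call was lost under 6 alternatives, without TE11 control replicates 1 (edgeR adjusted p = 0.0534) and 3 (0.071) and labelled knockdown replicate 2 (0.25) among them.

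TIMP4 held 72 counts in the TE11 controls against 1 in the labelled knockdowns, a ratio of 0.0274 (exact 95% interval 0.000685 to 0.158), and that count lay in replicate 2. MMP11 held 252 counts in the TE11 controls against 6 and 0 in the labelled knockdowns, a ratio of 0.047 (exact 95% interval 0.0171 to 0.104). Its fitted log2 fold change was -4.36, and -3.34 without replicate 2 of the labelled knockdowns; replicate 1 held all 6 counts, so leaving it out leaves 0. MMP11 was thus higher in the Kyse150 knockdowns and lower in the labelled TE11 knockdowns. Its difference between the lines was -7.48 (SE 0.72, edgeR adjusted p = 1.01e-13). In TE11, MMP11 and TIMP4 passed the filter only through the controls, and in Kyse150 MMP11 passed it only through the knockdowns. Those directions followed from the filter. MMP19 and MMP21 did not pass in TE11 (edgeR adjusted p = 0.342 and 0.287). MMP21 held 22 to 33 counts in the TE11 controls, 16 and 15 in the labelled knockdowns and 0 in every Kyse150 library. It was therefore shared by both TE11 groups, unlike MMP7. MMP9, a gelatinase studied in many carcinomas, held at most 4 counts in any library.

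Of 12 activators and surface regulators 9 were tested in Kyse150, with 2 higher and 2 lower and a median log2 fold change of -0.01, where 48.2% of all genes were called. LRP1, an uptake receptor for proteases and their inhibitors, rose 2.47-fold and CD44, which docks proteases at the cell surface, 1.61-fold. CAV1, the caveolar coat protein, fell to 0.652 of control and TSPAN14, a tetraspanin, to 0.656. FURIN, the convertase that removes the MMP14 propeptide, was 1.08-fold higher without passing (edgeR adjusted p = 0.233). In TE11 all 12 were tested and called, 5 higher and 7 lower, where 35.9% of all genes were called higher and 42.2% lower. CD44 was 2.51-fold, CAV1 2.22-fold and the convertase PCSK7 4.23-fold higher. CLDN1, a tight junction protein, went from 1654 control counts to 0, 279-fold lower on a floor of 3 counts. It passed the filter only through the controls, so its direction followed from the filter.

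In the plasminogen activator system, which activates several MMP precursors through plasmin, 5 of 9 tested genes rose and 2 fell in Kyse150 (median log2 fold change 0.43), where 24.8% of all genes were called higher and 23.3% lower. The activator PLAT rose 1.76-fold and the urokinase receptor PLAUR 1.35-fold, while S100A10, a docking protein for plasminogen, fell to 0.766 of control. The rises of SERPINE2 and SERPINF2 were lost with DESeq2 (adjusted p = 0.21 and 0.196) and without some libraries: SERPINE2 without control replicate 1 (0.127) or knockdown replicate 2 (0.561), and SERPINF2 without control replicate 2 (0.298) or either knockdown (0.0684 and 0.0707). In TE11, where 78.1% of all genes were called, 6 of 10 were higher and 4 lower: PLAUR was 3.08-fold higher in the labelled knockdowns, and SERPINE2 and PLAT were at 0.233 and 0.272 of control.

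Of 16 ADAM and ADAMTS proteases, a related family of which TIMP3 inhibits some members, 9 were tested in Kyse150 and 3 rose, where 24.8% of all genes were called higher: ADAM19 3.63-fold, ADAM17 1.29-fold and ADAM15 1.23-fold, the last lost without control replicate 1 (edgeR adjusted p = 0.0966). ADAM9 was at 0.881 of control (edgeR adjusted p = 0.0586), and was called lower with RLE scaling, without a filter, in the fit of all libraries and without control replicate 2 (0.012) or knockdown replicate 2 (0.0194). In TE11, 2 of 11 were higher and 8 lower, against 35.9% and 42.2% of all genes. ADAMTS6 was 46-fold and ADAMTS1 11.3-fold higher in the labelled knockdowns, and ADAM15 and ADAM9 were at 0.332 and 0.488 of control.

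Of 16 substrates of the proteases 12 were tested in Kyse150, with 5 higher and 4 lower and a median log2 fold change of 0.00, where 48.2% of all genes were called. The laminin chains LAMB3 and LAMA3 rose 1.67-fold and 1.4-fold, while the proteoglycan SDC1 fell to 0.742 of control. In TE11, where 78.1% of all genes were called, 8 of 14 were higher and 5 lower. FN1, fibronectin, was 5.97-fold, TNC, tenascin C, 5.49-fold and COL17A1, a hemidesmosomal collagen, 4.05-fold higher. SPP1, osteopontin, went from 939 control counts to 0, 158-fold lower on a floor of 3 counts. SPP1 and COL3A1, both among the 5 lower, passed the filter only through the controls, so their direction followed from the filter.

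**Figure D5:**
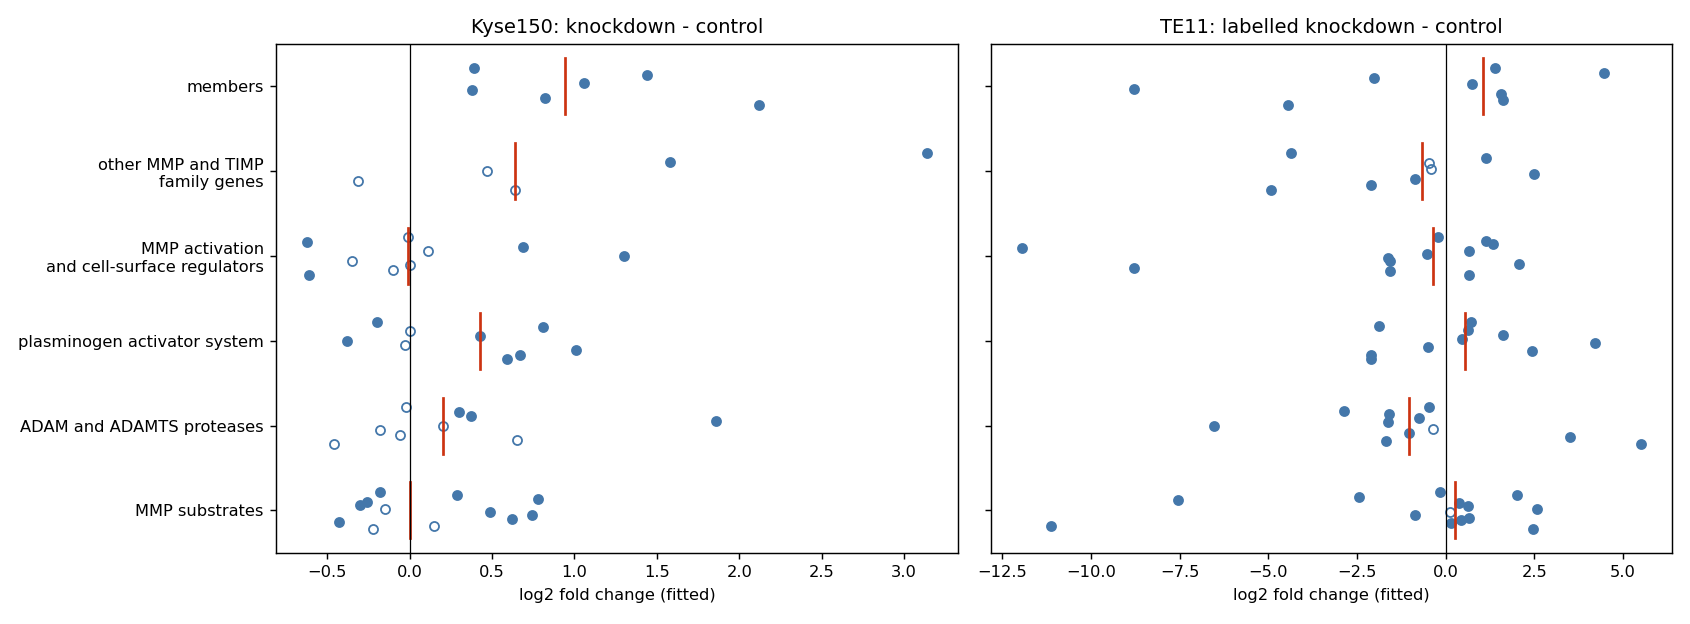
Fitted log2 fold changes of tested genes in the members and 5 related lists, in Kyse150 (left) and TE11 (right), on separate horizontal scales; filled points passed the test, open points did not, and red lines are list medians. The 6 tested Kyse150 members lie above 0, and the medians of the other lists there are 0.64, -0.01, 0.43, 0.20 and 0.00 from top to bottom; points beyond -6 in TE11 belong to genes with few or no counts in the labelled knockdowns, whose fitted values are no bound.

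Genes whose levels followed those of the 3 most abundant members were sought over all 9 libraries, among 12625 named genes with a mean of 2 CPM or more. The measure was the root mean square difference of log2(CPM + 1), each gene centred on its own mean. Nearest to MMP14 were FKBP10, a collagen-folding enzyme of the endoplasmic reticulum, at 0.134, HFE, which regulates iron uptake, at 0.195 and CSAG1, a cancer-testis antigen, at 0.207. FKBP10 stood at 136 ± 0.771 CPM in the Kyse150 controls (SD, n = 2), 215 ± 0.913 in the knockdowns (SD, n = 2), 6.28 ± 0.382 in the TE11 controls (SD, n = 3) and 131 ± 8.91 in the labelled knockdowns (SD, n = 2). Nearest to TIMP1 were C11orf68 at 0.0854, TMCC3 at 0.101 and MYO1E at 0.112, and nearest to TIMP2 were MPP1 at 0.135, CDK15 at 0.151 and STIM1 at 0.153. The libraries fall into tight groups, so such likeness reflects few independent levels and is a description.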

How the data were processed

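Gene counts were analysed in 4 Kyse150 and 5 TE11 libraries, grouped by their titles. The deposited values are raw fragment counts per gene in a separate table for each line. Per the submitters' processing notes, HISAT2 2.1.0 and HTSeq 0.9.1 were used, beside bcl2fastq 2.19 and DESeq2. The notes list 2 builds, GRCh38.p13 and GRCh37.p13, and tie neither to a table. The sources used here do not give the strand setting. HTSeq summary rows were left out of library sizes (fragments on no gene were 42.3% to 44.5% of a column). Symbols came from a table of gene names, then GENCODE release 29, for 52338 and 60659 identifiers.

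Genes passing filterByExpr (minimum count 10, minimum total 15) were scaled by TMM and tested with edgeR 4.0.16 (robust quasi-likelihood, no term but the group) in R 4.3.3, within each line on its whole table and, for comparisons between lines, in a fit of all 9 libraries over shared genes. Adjusted p-values are Benjamini-Hochberg over all genes tested, threshold 0.05. Printed CPM use the scaling of the joint fit. Exon lengths are unions of GENCODE exons. Counting intervals and floors (3 counts) cover counting error only. Alternatives were DESeq2 1.42.0, RLE and upper quartile scaling, no filter, a CPM filter, a block for the replicate number, and each library left out. The tests were tried on simulated data first. Replicates differed by more than counting noise (chi-square per degree of freedom 1.62 to 4.91).

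The members and lists were chosen with earlier results of these data known. Named were KDM2A, the members, tested relatives, up to 4 genes per list with the smallest p, and the nearest genes of 3 members. FURIN, MMP9, marker genes, SERPINE2 and SERPINF2 in Kyse150, and genes sharing exon bases, were added after their values were seen. A few genes that the rule would name are not reported here.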

Additional observations from a re-analysis of the deposited data

Results flagged for a closer look

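The difference between the lines in labelled knockdown against control, TE11 minus Kyse150 on the log2 scale, passed the test of the difference itself for 6 of 8 tested members (edgeR quasi-likelihood, 9 libraries). Over all genes 66.9% of 15895 tested passed it, so the count alone says little about the members. The difference was 2.29 for MMP1 (edgeR adjusted p = 0.0152), 4.11 for MMP14 (7.76e-41), -3.43 for MMP15 (1.79e-28), 1.21 for TIMP1 (1.44e-12), 0.82 for TIMP2 (2.27e-07) and -6.54 for TIMP3 (5.33e-17). MMP1 rests on 4 to 11 counts per library, and its difference was lost with DESeq2, with the replicate block and without 3 single libraries. MMP15 and TIMP3 are the members with opposite called directions in the lines: all Kyse150 knockdowns lay above their controls and all labelled TE11 knockdowns below theirs. The share of all genes without such overlap was not counted. TIMP3 passed the filter in Kyse150 only through the knockdowns, so its direction there followed from the filter. In TE11 the labelled knockdowns did not hold less KDM2A, so all differences in this paragraph are between labels.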

How the results depend on the processing

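Over 471 recomputed log2 fold changes of members 451 kept their direction and their side of the threshold, 14 lost a call, 6 gained one and none reversed. In Kyse150 all 6 calls held in every alternative run, with MMP15 between 1.38 and 1.5 and TIMP3 between 1.87 and 2.4; in TE11 MMP14 stayed between 4.41 and 4.51 and TIMP3 between -4.53 and -4.4, and MMP1 was the member whose call was lost. DESeq2 called 4337 genes in Kyse150, against 6771 with edgeR. Leaving out each library gave 0 to 1 members called higher in the labelled TE11 knockdowns against the Kyse150 controls: TIMP1 was called without TE11 control replicate 2 (edgeR adjusted p = 0.0435) and labelled knockdown replicate 2 (0.0449). In that comparison MMP2 was lost without Kyse150 control replicate 2 (0.0625) or labelled knockdown replicate 2 (0.168), and TIMP2 without Kyse150 control replicate 1 (0.0722).

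Upper quartile scaling moved the median difference between the lines over all genes from -0.06 to -0.18. Deviations of same-numbered libraries from their group means correlated at r = -0.0719 in Kyse150 and at 0.00359 and -0.0117 in TE11. In a group of 2 libraries each deviation mirrors the other, so these values cannot show whether equal numbers share a preparation. With the replicate block, members called higher were 6 in Kyse150, 4 in TE11 and 3 for the difference between the lines, against 6, 5 and 4 without it, MMP1 being the loss in TE11 and in the difference, and genes called were 6395, 12218 and 10211. Depth limits MMP1, MMP7, MMP10 and MMP13, which hold 11 or fewer counts in every library but for MMP7 in the TE11 controls.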
